A study of Pyronema omphalodes CBS 100304 with 9 samples.

Results

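The Con-6 family of the ascomycete Pyronema omphalodes (Pyronema confluens) comprised 5 of the 13369 gene models in the deposited table. Members were found by annotation: a Pfam domain named Con-6, or a product described as conidiation-specific protein 6. The family was chosen by the level of 1 of its genes, PCON_11571, in protoapothecia and sexual mycelium, so its values in those groups are given as a description without a test. The other 4 genes were found by their annotation, with earlier results of these data known. The family is named after con-6 of Neurospora crassa, a short gene known there for transcripts that accumulate while asexual spores (conidia) form and after exposure to blue light. Proteins with the Con-6 domain are mostly short, occur widely in filamentous fungi and also in fission yeast, and have no established biochemical function. Pyronema is known for small disc-shaped fruiting bodies (apothecia), whose formation needs light.

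RNA sequencing covered 9 libraries in 4 groups, all of 1 species with no mutant or transgene named in the labels. Protoapothecia, the young fruiting bodies (libraries A, B and C, independent biological replicates), were cultured at 25 °C for 4 d on microdissection slides coated with 150 µl of WPC medium in 0.8% agar. They were fixed in cold ethanol and cut out by laser, and their RNA was amplified linearly; whether those slides stood in light is not given in the sources used here. Sexual mycelium (libraries 1 and 2) was surface culture in WPC medium in constant light, and vegetative mycelium (libraries 1 and 2) was the same kind of culture in constant darkness, each with RNA of days 3, 4 and 5 pooled. The vegetative pool (libraries 1 and 2) combined RNA of submerged WPC cultures, in light and in darkness, with RNA of a dark surface culture on BMM medium, all after 3 d. The mycelium reads came from an earlier study, with RNA extracted in bulk. Each mycelium library is labelled as part of a technical replicate pair, and the labels do not say that libraries 1 and 2 came from separate cultures, so p-values may measure technical spread. In every comparison with protoapothecia, tissue and preparation (laser dissection and amplification) cannot be told apart. In sexual against vegetative mycelium, light and sexual development cannot be told apart. In vegetative mycelium against the pool, light, submerged growth, medium and days of culture cannot be told apart. Sexual mycelium against the pool adds sexual development to these. Within a library, fewer cells of a type and less RNA per cell cannot be told apart either.

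Total counts ranged from 5583951 in protoapothecia B to 24803660 in protoapothecia C. Levels are given as CPM, counts scaled to library size with TMM factors, and as CPM per kilobase of mRNA where genes are compared with each other. A level of 3 counts, used as the floor for a gene at 0, corresponded to 0.642 CPM in protoapothecia B and to between 0.112 and 0.202 CPM in the other libraries. Lectins, which are abundant proteins of many fungal fruiting bodies, were read beside the tissue labels and took no single direction. Of 6 genes described as lectins, protoapothecia had 2 higher and 1 lower relative to sexual mycelium, 2 higher and 2 lower relative to vegetative mycelium, and 3 higher and 2 lower relative to the pool. Of all 11787 genes tested, 26.7%, 36.4% and 34.8% were called higher in these comparisons and 34.5%, 32.8% and 34.4% lower. The fucose-specific lectin PCON_04233 averaged 13812.2 ± 3427.7 CPM in protoapothecia (SD, n = 3), 4337.9 ± 703.8 CPM in sexual mycelium (SD, n = 2), 9.51 ± 2.88 CPM in vegetative mycelium (SD, n = 2) and 238.1 ± 31.6 CPM in the vegetative pool (SD, n = 2). Galectin-3 (PCON_06081) went the other way, with means of 0.0879 CPM in protoapothecia, 3.53 in sexual mycelium, 9.81 in vegetative mycelium and 175.7 in the pool. Its pool libraries were far apart, at 40.9 and 310.6 CPM, and protoapothecia held 2 counts in all.

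Of the 5 members, 3 lay together on scaffold 615 of the authors' assembly (positions as deposited; the build is not given in the sources used here). PCON_11571 (positions 1674 to 2435, minus strand) had 3 exons of 145, 171 and 221 bases. PCON_11572 (positions 3837 to 4314, minus strand) had 3 exons of 40, 171 and 95 bases. These neighbours shared the length of the middle exon, 171 bases, and of the coding sequence, 306 bases. PCON_11576 (positions 13041 to 13891, plus strand) had 2 exons of 164 and 542 bases and a coding sequence of 597 bases. The 3 genes fell within 12218 bases that held 6 gene models in all, and each was described as conidiation-specific protein 6. PCON_05843 lay elsewhere, on scaffold 222 (positions 130106 to 130921, plus strand), with 2 exons and a coding sequence of 573 bases. It was described as UPF0654 protein C22G7.11c, the name of a fission yeast protein whose role is not established. In these 4 genes Con-6 was the only annotated domain. PCON_11862 on scaffold 647 (positions 29417 to 31961, minus strand) was of another kind: its 7 exons and coding sequence of 1863 bases carried an aldehyde dehydrogenase domain beside Con-6, and its product was described as succinate-semialdehyde dehydrogenase, an enzyme of the 4-aminobutyrate (GABA) shunt that makes succinate. No member overlapped another gene model.

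The 4 short genes fell into 2 patterns of level across the groups. PCON_11571 had its highest levels in vegetative cultures, above all in the dark surface mycelium, and almost no counts in protoapothecia. PCON_11572, PCON_11576 and PCON_05843 had their highest levels in sexual mycelium and few or no counts in vegetative cultures. PCON_11862, the enzyme, was detected at over 50 CPM in all 9 libraries and was highest in protoapothecia.

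**Figure D1:**
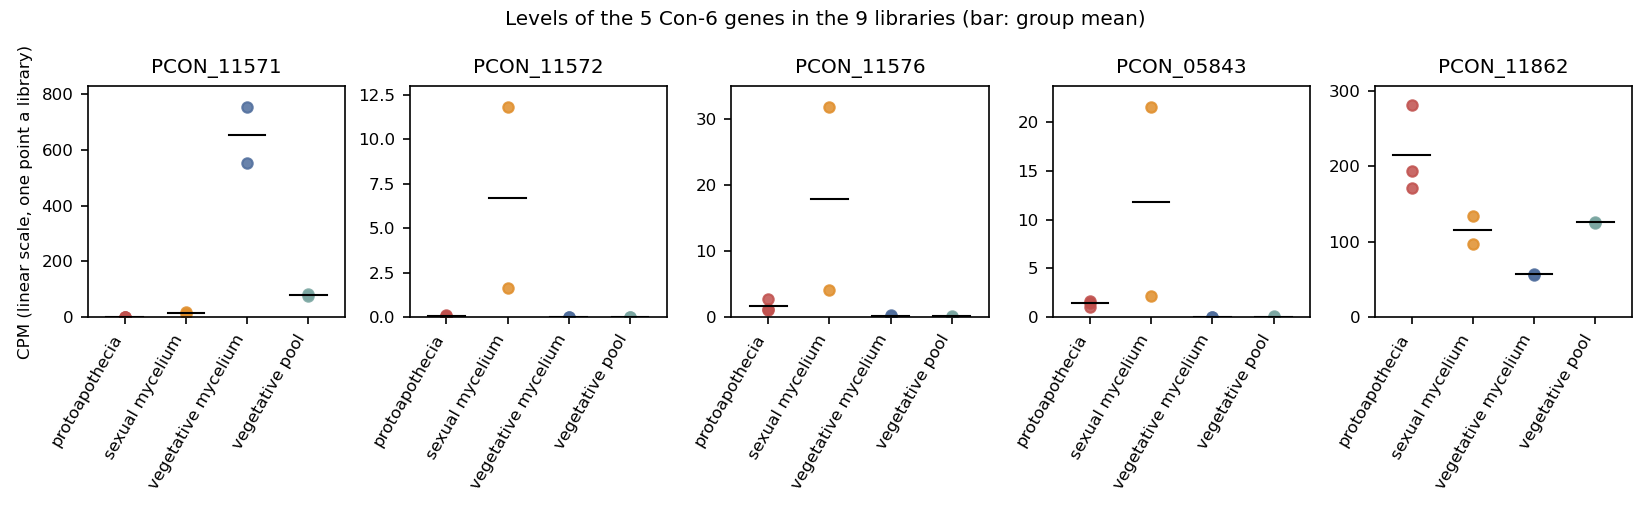
Level of each Con-6 gene in CPM (linear axis starting at 0, each gene with its own range) in the libraries of 4 groups, where a point is a library and a bar the group mean. PCON_11571 stands at 552.1 and 751.6 CPM in vegetative mycelium, 3 genes are highest in a single sexual library, and PCON_11862 is highest in protoapothecia.

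PCON_11571 had 0, 0 and 3 counts in protoapothecia A, B and C, against 257 and 485 counts in sexual libraries 1 and 2, 8195 and 11652 counts in vegetative mycelium libraries 1 and 2, and 1756 and 1184 counts in pool libraries 1 and 2. In CPM this was 0, 0 and 0.148 in protoapothecia, 12.3 and 18.2 in sexual mycelium, 552.1 and 751.6 in vegetative mycelium, and 82.9 and 77.4 in the vegetative pool. The libraries of the 4 groups did not overlap anywhere in this order: vegetative mycelium was highest, followed by the pool, sexual mycelium and protoapothecia. Per kilobase of mRNA, PCON_11571 ranked 49th of 13369 genes in vegetative mycelium, 716th in the vegetative pool, 3752nd in sexual mycelium and 12355th in protoapothecia. Expressed as the higher group over the lower, with 95% intervals that cover counting error only, sexual mycelium was 234.1 times protoapothecia (79.8 to 1137.6). Vegetative mycelium was 9808.8 times protoapothecia (3355.9 to 47567.7), and the vegetative pool 1209.2 times (413.3 to 5866.7). All 3 counts behind the protoapothecium level came from library C: without it, protoapothecia were at least 125.9-fold lower than sexual mycelium, 5380.9-fold lower than vegetative mycelium and 661.9-fold lower than the pool, with a floor of 3 counts over libraries A and B. Without library A the ratios were 129.6, 5429.5 and 669.3.

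Among the mycelium groups, PCON_11571 was 15.2 ± 4.14 CPM in sexual mycelium, 651.9 ± 141.1 CPM in vegetative mycelium and 80.2 ± 3.91 CPM in the vegetative pool (SD, n = 2 each). The log2 fold change of sexual over vegetative mycelium was −5.42 (SE 0.441), a level 42.7-fold lower in the light-grown sexual cultures, and that of sexual mycelium over the pool was −2.39 (SE 0.386), both without a test. Between the groups that had no part in the choice of the family, PCON_11571 rose in vegetative mycelium over the vegetative pool by a log2 fold change of 3.02 (SE 0.394), which is 8.13-fold, with an adjusted p of 0.00421 in edgeR's quasi-likelihood test (Benjamini-Hochberg). Both vegetative mycelium libraries lay above both pool libraries. Of all 11787 genes tested, 1.79% were called higher in this comparison. PCON_11571 was the only Con-6 gene of the 5 called there. PCON_11862 went the other way, with a log2 fold change of −1.14 (SE 0.281). Its adjusted p of 0.0515 by the same test lay just outside the threshold of 0.05. PCON_11572 and PCON_05843 were at or under the floor in both groups, and PCON_11576 had 2 and 6 counts in vegetative mycelium against 2 and 3 in the pool (adjusted p of 0.823 by the same test).

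The other 3 short genes were measured almost wholly in sexual mycelium and, at a lower level, in protoapothecia. PCON_11572, the near neighbour of PCON_11571, had 1, 0 and 3 counts in protoapothecia A, B and C, against 34 and 316 counts in sexual mycelium 1 and 2 and 0 counts in all 4 vegetative libraries. Its level was 0.0498, 0 and 0.148 CPM in protoapothecia, and 1.63 and 11.8 CPM in sexual mycelium. Only the sexual libraries stood above the floor for this gene. PCON_11571, which matches it in exon number, middle exon length and length of the coding sequence, had 8195 and 11652 counts in the vegetative mycelium libraries where PCON_11572 had 0. How the authors' counting treated reads that could fall on both genes was not tested.

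PCON_11576 had 24, 5 and 57 counts in protoapothecia A, B and C, 87 and 849 counts in sexual libraries 1 and 2, 2 and 6 counts in vegetative mycelium libraries 1 and 2, and 2 and 3 counts in pool libraries 1 and 2. This was 1.19, 1.07 and 2.82 CPM in protoapothecia, 4.17 and 31.8 CPM in sexual mycelium, 0.135 and 0.387 CPM in vegetative mycelium, and 0.0945 and 0.196 CPM in the pool. Sexual mycelium was highest and protoapothecia came next, with no overlap between these and with neither overlapping the vegetative libraries, which overlapped each other.

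PCON_05843 had 22, 7 and 34 counts in protoapothecia A, B and C, 45 and 575 counts in sexual libraries 1 and 2, 0 counts in both vegetative mycelium libraries, and 2 and 0 counts in pool libraries 1 and 2. Its levels were 1.10, 1.5 and 1.68 CPM in protoapothecia, and 2.16 and 21.5 CPM in sexual mycelium. The order of the groups was that of PCON_11576, although the lower sexual library stood close to protoapothecium library C.

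In sexual against vegetative mycelium, PCON_05843, PCON_11572, PCON_11576 and PCON_11862 were higher, while PCON_11571, not tested there, was 42.7-fold lower. PCON_11572 passed the filter on low counts only through the sexual libraries, and PCON_11576 and PCON_05843 only through protoapothecia and sexual mycelium. Their differences from the vegetative groups were thus partly set by that filter, and no number of members called is read against the share of all genes called higher, here 20.6%. PCON_05843 was at least 119.9-fold higher and PCON_11572 at least 68.1-fold higher, both against a floor of 3 counts over the vegetative group (adjusted p of 0.00316 and 0.0057, edgeR's quasi-likelihood test). PCON_11576 had a log2 fold change of 6.06 (SE 1.13, adjusted p of 0.00321 by the same test). PCON_11862 had one of 1.01 (SE 0.281, adjusted p of 0.0227). Every one of these genes was higher in both sexual libraries than in both vegetative ones. The sizes leaned on single libraries: without sexual mycelium 2 the log2 fold change of PCON_11576 was 3.95, without sexual mycelium 1 it was 6.88, and without vegetative mycelium 1 or 2 it was 5.50 or 6.99. PCON_05843 was at least 21.8-fold higher without sexual mycelium 2, 218-fold without sexual mycelium 1, and 61.3- or 58.6-fold without vegetative mycelium 1 or 2. For PCON_11572 these bounds were 16.5, 119.8, 34.8 and 33.3 in the same order. The calls of the 3 short genes held in each case, and with no filter their adjusted p was 0.00225 for PCON_05843, 0.0042 for PCON_11572 and 0.00249 for PCON_11576, while PCON_11862 was not called without sexual mycelium 2, vegetative mycelium 1 or vegetative mycelium 2 (log2 fold changes of 0.77, 1.02 and 1.0, adjusted p of 0.169, 0.116 and 0.131 by edgeR's quasi-likelihood test).

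In sexual mycelium against the vegetative pool, PCON_11572, PCON_05843 and PCON_11576 were higher, in a comparison where 19.8% of all genes were called so and where the same filter applies. PCON_11572 was at least 81.9-fold higher (adjusted p of 0.0053, edgeR's quasi-likelihood test). That bound was 19.8 without sexual mycelium 2, 143.9 without sexual mycelium 1, and 34.3 or 47.5 without pool library 1 or 2. PCON_05843 stood at 237.8 times the pool, with a counting interval of 65.5 to 1967.8 since the pool held 2 counts (adjusted p of 0.00434 by the same test). The ratio was 39.3 without sexual mycelium 2, 392.9 without sexual mycelium 1, 138.0 without pool library 2 and at least 60.4 without pool library 1. PCON_11576 had a log2 fold change of 6.94 (SE 1.19, adjusted p of 0.00225), which was 4.82 without sexual mycelium 2, 7.76 without sexual mycelium 1 and 7.47 without vegetative pool 2. PCON_11862 averaged 115.4 ± 25.8 CPM in sexual mycelium and 126.0 ± 0.955 CPM in the pool (SD, n = 2 each) and was not called (log2 fold change −0.13, SE 0.277, adjusted p of 0.792). The comparisons with sexual mycelium share its libraries, as do those with protoapothecia, and are not independent of each other.

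In protoapothecia against vegetative mycelium, PCON_05843, PCON_11576 and PCON_11862 were higher, where the filter bore on the first 2 as above and 36.4% of all genes were called so. PCON_05843 was at least 14.4-fold higher (adjusted p of 0.00896, edgeR's quasi-likelihood test), a bound of 7.36 or 7.05 without vegetative mycelium 1 or 2. PCON_11576 had a log2 fold change of 2.72 (SE 1.03, adjusted p of 0.0394), a call lost without protoapothecia C, vegetative mycelium 1 or vegetative mycelium 2 (log2 fold changes of 2.12, 2.18 and 3.64, adjusted p of 0.12, 0.183 and 0.0739). PCON_11572, at or under the floor in both groups, was not called (adjusted p of 0.236). Against the vegetative pool these genes were again higher, where 34.8% of all genes were called so. PCON_05843 stood at 25.5 times the pool (counting interval 6.78 to 215.4, adjusted p of 0.0167 by the same test), 14.8 times without pool library 2 and at least 7.26 times without pool library 1. Without vegetative pool 2 its log2 fold change was 3.81 (adjusted p of 0.0794). PCON_11576 had a log2 fold change of 3.59 (SE 1.10, adjusted p of 0.0162), and 3.12 without pool library 1 or 4.13 without pool library 2 (adjusted p of 0.103 and 0.052). PCON_11572 was again not called (adjusted p of 0.208).

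Protoapothecia against sexual mycelium was the contrast through which the family was picked, so it is described only. For 4 genes every protoapothecium library was lower than both sexual libraries, and for 1 gene every one was higher. Among all genes tested, 41.5% did not overlap with protoapothecia lower and 31.5% with protoapothecia higher. Means in protoapothecia and sexual mycelium were 1.42 and 11.9 CPM for PCON_05843, 1.69 and 18.0 CPM for PCON_11576, and 0.066 and 6.74 CPM for PCON_11572. The log2 fold changes were −3.06 (SE 0.89), −3.35 (SE 0.813) and −6.18 (SE 1.12) for these genes. Their sizes rested on sexual mycelium 2: without it the values were −0.60, −1.25 and −4.13, and without sexual mycelium 1 they were −3.92, −4.17 and −6.99. In the authors' deposited table, PCON_11571, PCON_11572 and PCON_11576 were called lower in protoapothecia and PCON_05843 and PCON_11862 were not called, in the standard and in the stringent consensus.

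PCON_11862, the succinate-semialdehyde dehydrogenase, had 193.1, 171.3 and 280.8 CPM in protoapothecia A, B and C, 97.2 and 133.7 CPM in sexual libraries 1 and 2, 57.9 and 56.4 CPM in vegetative mycelium libraries 1 and 2, and 125.4 and 126.7 CPM in pool libraries 1 and 2. Protoapothecia were highest and vegetative mycelium lowest without overlap, whereas sexual mycelium and the pool overlapped. The log2 fold change of protoapothecia over sexual mycelium was 0.90 (SE 0.26), given without a test. Over vegetative mycelium it was 1.91 (SE 0.273, adjusted p of 0.000208 by edgeR's quasi-likelihood test). Over the vegetative pool it was 0.77 (SE 0.259, adjusted p of 0.0239), a call lost without pool library 1 or 2 (log2 fold changes of 0.76 and 0.78, adjusted p of 0.11 and 0.103). Vegetative mycelium over the pool gave −1.14 (SE 0.281) with an adjusted p of 0.0515 by the same test, just outside the threshold of 0.05. With only these groups in the fit it was −1.13 (adjusted p of 0.0034), and DESeq2 gave −1.09 (adjusted p of 0.00394). The authors' deposited calls of PCON_11862 differed in part. They had it higher in protoapothecia than in vegetative mycelium, and lower in vegetative mycelium than in the pool, in the standard consensus only. In neither consensus was it called in protoapothecia against the pool or in sexual against vegetative mycelium.

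Levels per kilobase rest on the deposited mRNA lengths, which include untranslated 5' and 3' ends of unequal length. These ends were 105 and 126 bases for PCON_11571, 73 and 36 for PCON_11576, 0 and 176 for PCON_05843 and 0 and 0 for PCON_11572. What this does to the levels was not tested. With that limit, the short genes could be set against each other within a library. Their summed level was 3.32, 3.51 and 7.0 CPM per kilobase in protoapothecia A, B and C, 37.1 and 146.4 for sexual libraries 1 and 2, 1028.4 and 1400.2 for vegetative mycelium libraries 1 and 2, and 154.7 and 144.4 for pool libraries 1 and 2. PCON_11571 gave 0%, 0% and 3.95% of that sum in protoapothecia A, B and C, 61.9% and 23.1% for sexual libraries 1 and 2, 100% in both vegetative mycelium libraries and 99.8% in both pool libraries. The family's short-gene transcripts were thus almost entirely PCON_11571 in vegetative cultures, a mixture in sexual mycelium, and PCON_11576 and PCON_05843 in protoapothecia.

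**Figure D2:**
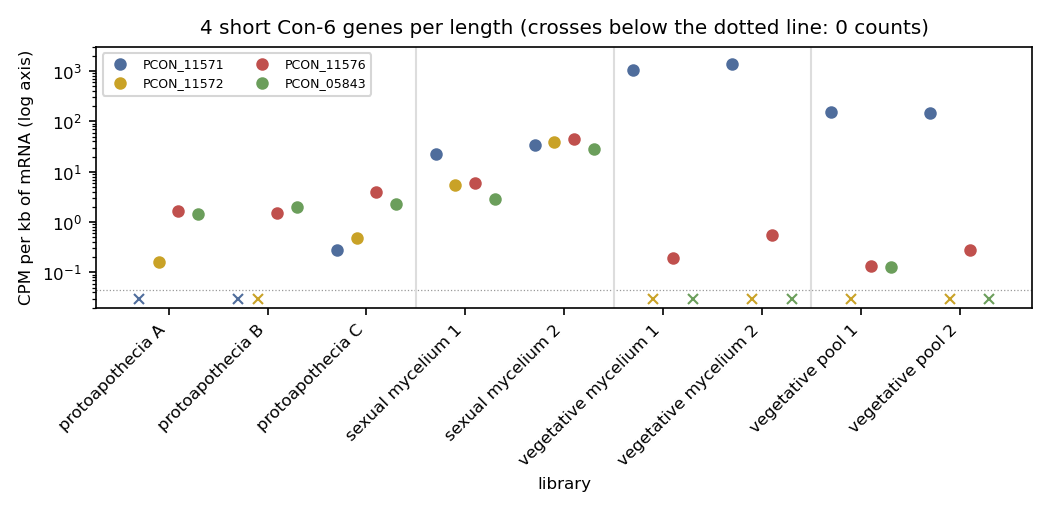
Level of the 4 short Con-6 genes in each of 9 libraries, in CPM per kilobase of mRNA on a log axis, with crosses below the dotted line for genes at 0 counts. PCON_11571 lies at 1028.2 and 1399.7 in vegetative mycelium with the other genes under 1, while all 4 genes lie between 28.8 and 45.1 in sexual mycelium 2.

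Among the 4 short genes in sexual mycelium 2 the levels were close, at 33.8 CPM per kilobase for PCON_11571, 38.7 for PCON_11572, 45.1 for PCON_11576 and 28.8 for PCON_05843. In sexual mycelium 1 they were 22.9, 5.33, 5.91 and 2.88 in the same order of genes. Group means per kilobase in sexual mycelium were 28.4 ± 7.71 for PCON_11571, 25.5 ± 27.7 for PCON_11576, 22.0 ± 23.6 for PCON_11572 and 15.8 ± 18.3 for PCON_05843 (SD, n = 2 each). The genes were measured in the same libraries, so these SDs hold the shift between libraries and do not measure differences between genes. PCON_11576 stood above PCON_11572, and PCON_11572 above PCON_05843, in both libraries. PCON_11571 was the highest of the short genes in library 1 but lay below PCON_11576 and PCON_11572 in library 2. PCON_11862 exceeded the short genes in sexual mycelium at 58.1 ± 13.0 (SD, n = 2). In protoapothecia PCON_11862 led at 108.2 ± 29.2, far above PCON_11576 at 2.40 ± 1.38 and PCON_05843 at 1.90 ± 0.40 (SD, n = 3 each). PCON_11576 was above PCON_05843 in libraries A and C (1.69 against 1.46 and 3.99 against 2.24) and below it in library B (1.51 against 2.0). By medians PCON_05843 was the higher of this pair, at 2.0 against 1.69 for PCON_11576.

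The paired sexual mycelium libraries differed for 3 members far more than for most genes. The CPM in library 2 over that in library 1 was 9.99 for PCON_05843 (counting interval 7.37 to 13.8), 7.63 for PCON_11576 (6.11 to 9.62) and 7.26 for PCON_11572 (5.09 to 10.7). These ratios ranked 3rd, 9th and 11th among the 11150 genes with at least 10 counts in each library. The median ratio over those genes was 1.02, and the central 95% of genes ran from 0.511 to 2.6. PCON_11571, at 1.48, and PCON_11862, at 1.38, lay inside that range. Of the 13 genes whose ratio was 7-fold or more, 3 were Con-6 genes and 1 was PCON_11577, the gene of unknown function next to PCON_11576, at 7.26. The 7-fold cut lies just under the lowest ratio of these Con-6 genes, so their share of the 13 is a description only. Others of the 13, chosen after their values were seen, were the dihydroxyacetone kinase PCON_11650 at 11.4 and PCON_01752, described as a 12 kDa heat shock protein, at 9.68. Each of these libraries is labelled as part of a technical replicate pair. The labels do not say how the libraries differ, and what moved these genes was not tested.

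**Figure D3:**
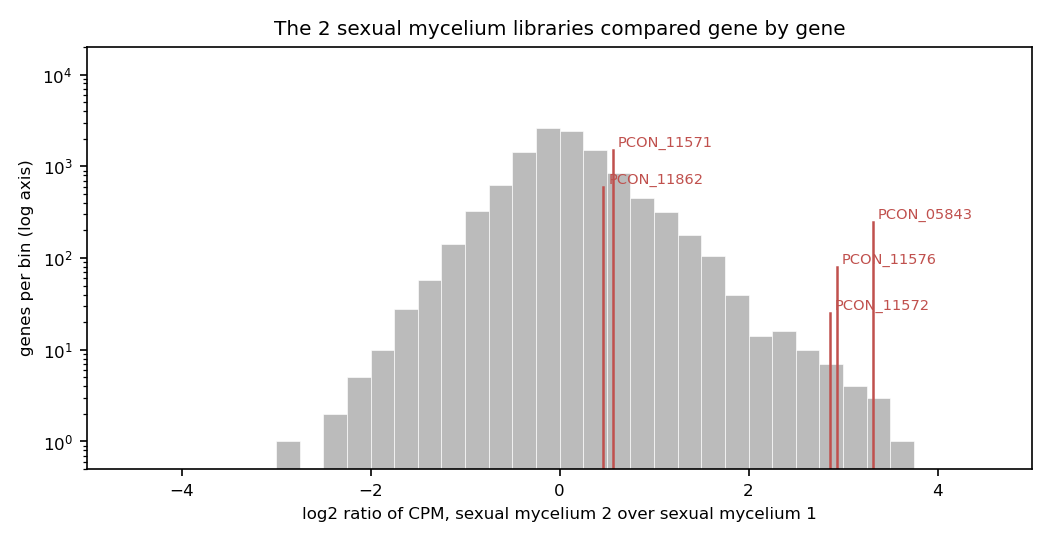
Histogram of the log2 ratio of CPM in sexual mycelium 2 over sexual mycelium 1 for 11150 genes (genes per bin on a log axis), with a vertical line for each Con-6 gene whose height carries no value. PCON_05843, PCON_11576 and PCON_11572 lie at the far right of the distribution, and PCON_11571 and PCON_11862 lie inside its bulk.

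The 3 genes of the sexual pattern were grouped by their levels in these 9 libraries, which share groups and depth. A high correlation among them follows in part from that grouping and is given as a description. Pearson's r of log2 CPM was 0.955 for PCON_05843 with PCON_11576, 0.908 for PCON_11572 with PCON_11576 and 0.831 for PCON_05843 with PCON_11572. Over the 6 mycelium libraries alone it was 0.973, 0.989 and 0.994 in the same order. Among these, PCON_11572 had 0 counts in every vegetative library, and PCON_05843 in all but pool library 1, which held 2 counts. Those values thus set the sexual libraries against levels at or near the floor. PCON_11571 had a negative r with each of the 4 other members over the 9 libraries, ranging from −0.869 with PCON_11862 to −0.0425 with PCON_11572.

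The genes around the members did not share one pattern. PCON_11570, described as an aldehyde reductase, ends 16 bases from PCON_11571 and averaged 1.97 CPM in protoapothecia, 3.74 in sexual mycelium, 11.2 in vegetative mycelium and 31.1 in the vegetative pool. Unlike PCON_11571, it was highest in the pool. In vegetative mycelium over the pool it had a log2 fold change of −1.48 (SE 0.432, adjusted p of 0.0932 by edgeR's quasi-likelihood test), the opposite sign to PCON_11571. The genes between PCON_11572 and PCON_11576 were detected in all groups, at 10.6 to 33.0 CPM on average for PCON_11573, 24.5 to 209.5 CPM for PCON_11574 and 2.39 to 8.27 CPM for PCON_11575. PCON_11577, beyond PCON_11576, averaged 1.48 CPM in protoapothecia, 6.93 in sexual mycelium, 0.161 in vegetative mycelium and 0.42 in the pool. It rose in sexual over vegetative mycelium (log2 fold change 5.35, SE 1.41, adjusted p of 0.0182) and over the pool (3.97, SE 1.24, adjusted p of 0.0389), calls that were both lost without sexual mycelium 2 (3.30 and 1.93, adjusted p of 0.158 and 0.374). The call over vegetative mycelium was also lost without vegetative mycelium 1 (4.39, adjusted p of 0.102). The call over the pool was also lost without protoapothecia A, pool library 1 or pool library 2 (3.96, 5.65 and 3.28, adjusted p of 0.0517, 0.0731 and 0.188), and with a replicate block (3.18, adjusted p of 0.137). Next to PCON_05843, the gene PCON_05842 of unknown function averaged 213.4 CPM in protoapothecia, 14.0 in sexual mycelium, 0.161 in vegetative mycelium and 0.142 in the pool, while PCON_05844 on the other side had no more than 4 counts in any group. PCON_11862 stood between PCON_11861, of unknown function, at 4122.5 CPM in protoapothecia and under 1 CPM in both vegetative groups, and the hexokinase PCON_11863, at 71.9 CPM in protoapothecia and 196.1 CPM in sexual mycelium.

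**Figure D4:**
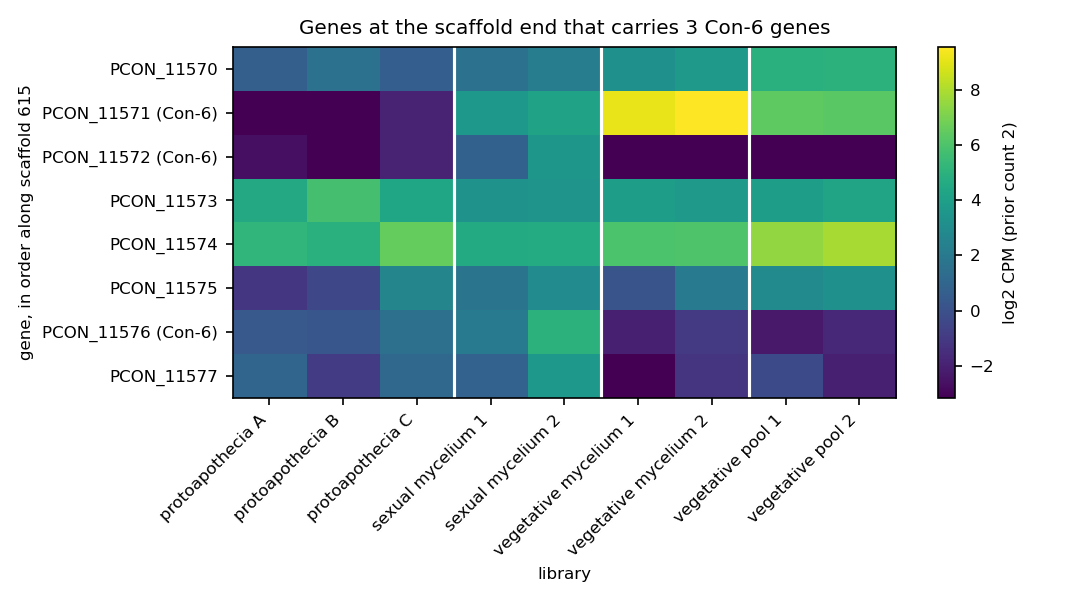
Log2 CPM (prior count 2, colour) of 8 neighbouring genes in their order along scaffold 615, by library, with white lines between the groups. The 3 Con-6 genes take different colours across the groups, with PCON_11571 brightest in vegetative mycelium and PCON_11572 and PCON_11576 brightest in sexual mycelium 2, and PCON_11577 follows PCON_11576 in that library.

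Genes whose levels ran most like those of each member were taken from 4786 described genes, by Pearson's r of log2 CPM over the 9 libraries. For PCON_11571 they were an alpha-mannosidase (PCON_09217, r = 0.998) and 2 ankyrin repeat genes (PCON_06925, r = 0.996; PCON_02633, r = 0.994). The alpha-mannosidase averaged 138.5 CPM in protoapothecia, 674.8 in sexual mycelium, 2244.5 in vegetative mycelium and 1144.1 in the pool. PCON_11572 was followed by an ankyrin repeat gene (PCON_05289, r = 0.97), a threonine aspartase (PCON_03896, r = 0.96) and the cell wall mannoprotein PIR3 (PCON_03885, r = 0.96). PCON_11576 was followed by the aspartic endopeptidase OPSB (PCON_02744, r = 0.976), a DnaJ chaperone (PCON_08598, r = 0.976) and an E3 ubiquitin ligase (PCON_03364, r = 0.954). The same DnaJ chaperone came first for PCON_05843 (r = 0.973), ahead of a tRNA adenosine deaminase (PCON_10066, r = 0.968) and an endochitinase (PCON_11242, r = 0.955). PCON_11862 was followed by 2 transporters, a xanthine/uracil permease (PCON_03708, r = 0.968) and a vacuolar amino acid transporter (PCON_10951, r = 0.965), and by a fatty acid desaturase (PCON_14289, r = 0.957). These choices depended on the measure. By rank correlation (Spearman's rho) the named genes stood between 2nd (PCON_02744) and 281st (PCON_14289) of the 4786. PCON_09217 stood 119th, PCON_03885 154th and PCON_05289 187th.

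Other genes named for conidiation in ascomycetes were read beside the family. The list held 7 genes: wetA, abaA, flbA, fluG and stuA, which are regulators of asexual development known from Aspergillus nidulans, a gene for a conidial pigment polyketide synthase, and con-10, described like con-6 as a conidiation-specific protein. In protoapothecia 4 were higher and 1 lower than in sexual mycelium (median log2 fold change 0.82, against −0.14 over all genes tested), 3 higher and 1 lower than in vegetative mycelium (0.59 against 0.15), and 4 higher and 1 lower than in the pool (1.07 against 0.05). In sexual mycelium 1 was higher and 1 lower than in vegetative mycelium (−0.11 against 0.08), and 1 higher and 0 lower than in the pool (0.24 against 0.04). In vegetative mycelium 1 was higher and 1 lower than in the pool (0.17 against −0.02). Among all genes, protoapothecia had 26.7% called higher and 34.5% called lower relative to sexual mycelium, 36.4% and 32.8% relative to vegetative mycelium, and 34.8% and 34.4% relative to the pool. In sexual mycelium 20.6% were called higher and 9.0% lower than in vegetative mycelium, and 19.8% and 9.48% against the pool. In vegetative mycelium 1.79% were called higher and 3.41% lower than in the pool. With 7 genes, the list's counts are given as a description. The count of 4 higher than in sexual mycelium was 2 without sexual mycelium 2. The gene lower in protoapothecia, the polyketide synthase PCON_04029, averaged 13.4 CPM there and 21.9 to 24.6 CPM in the mycelium groups, and it was called in 3, 12 and 1 of 14 alternative settings against sexual mycelium, vegetative mycelium and the pool.

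Of these regulators, wetA (PCON_02676), which acts late in spore maturation in Aspergillus, averaged 1202.0 ± 46.4 CPM in protoapothecia (SD, n = 3), 64.2 ± 3.46 CPM in sexual mycelium, 499.4 ± 37.8 CPM in vegetative mycelium and 101.1 ± 28.2 CPM in the pool (SD, n = 2 each). Like PCON_11571 it was higher in vegetative mycelium than in the pool (log2 fold change 2.30, SE 0.256, adjusted p of 0.00209 by edgeR's quasi-likelihood test), but its highest level was in protoapothecia, where PCON_11571 was at or near 0 counts. fluG (PCON_09765) averaged 5037.6 CPM in protoapothecia, 294.1 in sexual mycelium, 5.61 in vegetative mycelium and 25.0 in the pool. It was the gene called lower in vegetative mycelium than in the pool (log2 fold change −2.15, SE 0.451, adjusted p of 0.0289), a call lost without sexual mycelium 1 or 2 (−2.15 in both cases, adjusted p of 0.0563 and 0.0548), vegetative mycelium 1 or 2 (−1.90 and −2.45, adjusted p of 0.222 and 0.127) and pool library 1 or 2 (−2.38 and −1.90, adjusted p of 0.0738 and 0.0998 by edgeR's quasi-likelihood test). The con-10 gene PCON_08706 had 34, 3 and 1856 counts in protoapothecia A, B and C, 7 and 49 counts in sexual libraries 1 and 2, 0 and 10 counts in vegetative mycelium libraries 1 and 2, and 9 and 7 counts in pool libraries 1 and 2. Its level in protoapothecia thus came from library C, at 91.8 CPM against 1.69 and 0.642 CPM in A and B. It was called higher in protoapothecia than in vegetative mycelium (log2 fold change 6.57, SE 2.28, adjusted p of 0.0278) and the pool (6.15, SE 2.20, adjusted p of 0.0312), and without protoapothecia C these values were 1.97 and 1.56 (adjusted p of 0.186 and 0.266). The first call was also lost without vegetative mycelium 1 or 2 (5.61 and 12.16, adjusted p of 0.146 and 0.0692), and the second without pool library 1 or 2 (6.09 and 6.21, adjusted p of 0.156 and 0.148).

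In Neurospora con-6 responds to light, and 7 genes of light perception and light-induced carotenoid synthesis were read beside the family. In sexual mycelium, the light-grown culture, 3 were higher and 0 lower than in dark vegetative mycelium (median log2 fold change 0.23, against 0.08 over all genes), and 1 higher and 0 lower than in the pool (0.15 against 0.04), beside the 20.6% and 19.8% of all genes called higher there. The 3 were the phytoene dehydrogenase PCON_03421 (log2 fold change 4.22, SE 0.508, adjusted p of 0.000338), the lycopene cyclase and phytoene synthase PCON_03423 (4.62, SE 0.702, adjusted p of 0.00111) and the cryptochrome DASH PCON_04123 (2.37, SE 0.456, adjusted p of 0.0038), all by edgeR's quasi-likelihood test. In the same comparison PCON_11572, PCON_11576 and PCON_05843 were higher too, and PCON_11571 was lower. The pool held RNA of a light-grown culture, and it differed from vegetative mycelium also in submerged growth, medium and days of culture. In vegetative mycelium against the pool 0 were higher and 2 lower (median 0.04 against −0.02), where 3.41% of all genes were lower. These were PCON_03421 (−4.07, SE 0.505, adjusted p of 0.00361) and PCON_03423 (−4.71, SE 0.705, adjusted p of 0.00804), of which PCON_03423 was not called without vegetative mycelium 1 (−4.11, adjusted p of 0.0708 by edgeR's quasi-likelihood test). In protoapothecia 2 were higher and 5 lower than in sexual mycelium (median −2.24 against −0.14), 2 higher and 4 lower than in vegetative mycelium (−1.95 against 0.15), and 2 higher and 4 lower than in the pool (−1.55 against 0.05), where 34.5%, 32.8% and 34.4% of all genes were lower.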

How the data were processed

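RNA sequencing libraries of protoapothecia (n = 3), sexual mycelium, vegetative mycelium and a vegetative pool (n = 2 each) were grouped by their titles or descriptions. The authors deposited 1 table of the series with raw, unnormalized read counts for each gene model in each library, per the file headers. The same table holds the authors' consensus calls, deposited as a score of −1, 0 or 1 per comparison, along with gene model lengths, products, Pfam domains and scaffold positions. The submitters' processing notes name CASAVA 1.8.2 and DESeq. No aligner, counting tool, genome build or strand setting is given in the sources used here.

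Members and lists were chosen with earlier results of these data known. Differences were tested on the counts with edgeR 4.0.16 (R 4.3.3): filterByExpr (minimum count 10, minimum total 15) kept 11787 genes, including all 5 members, libraries were scaled by TMM, and 4 groups shared 1 robust quasi-likelihood fit with 5 residual degrees of freedom. Tests were two-sided, with Benjamini-Hochberg adjustment over all genes tested and a threshold of 0.05. CPM used TMM library sizes, and log2 CPM a prior count of 2. The pipeline was tested on counts simulated from its own fitted model, with changes placed in protoapothecia alone. That simulation was not built to cover groups at 0 counts or single libraries that stand apart. A fold against a group at 0 is a bound at 3 counts over that group. Against 1 to 3 counts it is a ratio with its 95% counting interval. Bounds and intervals cover counting error alone: without molecular identifiers, reads are not independent molecules. PCON_11571 was tested only in vegetative mycelium against the pool, and no member was tested in protoapothecia against sexual mycelium. Named genes were all members, their nearest neighbours, up to 4 genes of each list per comparison by smallest p, and for each member the 3 described genes of the highest r with at least 10 mean CPM in a group. Of 8 products matching lectin, 2 that name cargo receptors were left out. Replicates within each group differed by more than sampling noise (chi-square per degree of freedom of at least 23.5). Alternatives were RLE scaling, no filter, a replicate block, each library left out, only the groups compared, and DESeq2 1.42.0.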

Additional observations from a re-analysis of the deposited data

How the results depend on the processing

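Over 26 member comparisons and 14 alternatives (1 value of PCON_11576, vegetative mycelium against the pool with only these groups in the fit, could not be had because the gene failed the filter), 338 of 363 values kept their side of the threshold or, where untested, lay within the replicate spread, 11 lost a call, 5 gained one, 9 untested values moved beyond the replicate spread and 0 called values reversed. Of the values not called, 2 changed sign: PCON_11576 in vegetative mycelium against the pool gave −0.05 without vegetative mycelium 2, and PCON_11862 in sexual mycelium against the pool 0.08 without sexual mycelium 1. The 5 gained calls were all PCON_11862 in vegetative mycelium against the pool: log2 fold change −1.09 with RLE scaling, −1.13 with only the groups compared, −1.09 with DESeq2, and −1.13 without protoapothecia B or C. With each library left out in turn that value ran from −1.15 to −1.12, without a call at either end. With a library left out, protoapothecia against sexual mycelium gave −3.92 to −0.60 for PCON_05843, −7.16 to −4.13 for PCON_11572, −4.17 to −1.25 for PCON_11576 and −11.05 to −6.93 for PCON_11571. For PCON_11571, protoapothecia gave −16.47 to −12.34 against vegetative mycelium and −13.44 to −9.32 against the pool, values that depend on the prior count because library C holds all its counts in protoapothecia. PCON_11576 gave 2.12 to 3.64 in protoapothecia against vegetative mycelium and 3.01 to 4.13 against the pool. PCON_05843 gave 3.81 to 7.62 and PCON_11862 0.57 to 0.93 in protoapothecia against the pool, and PCON_11862 0.77 to 1.23 in sexual against vegetative mycelium. The cause of lost calls was not tested beyond the smaller groups these fits have, in which a lone library is assumed to vary like the other groups.

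The labels do not say that library numbers pair the samples. Deviations of libraries with the same number correlated at 0.119 between sexual and vegetative mycelium and at −0.157 between sexual mycelium and the pool. Between vegetative mycelium and the pool the correlation was −0.0431. With a lone pair of libraries in each mycelium group, these values cannot decide whether the numbers mark shared cultures or batches. With a replicate block PCON_11576 had a log2 fold change of 5.77 in sexual against vegetative mycelium, no member's call changed, and calls of 5 other named genes were lost (PCON_11577, PCON_11573, PCON_02904, PCON_04029 and PCON_06081, adjusted p of 0.0547 to 0.137 by edgeR's quasi-likelihood test). Genes called in vegetative mycelium against the pool numbered 348 against 613 without the block. RLE scaling moved the median of all genes in protoapothecia against sexual mycelium from −0.14 to 0.03, and against the pool from 0.05 to 0.23. Protoapothecia B, with 5583951 counts, limits what low levels of the short genes can show.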
